A study of Mus musculus with 15 samples.

Results

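The genes described here are the membrane transporters that carry bile acids, sterols, phospholipid and conjugated bilirubin into and out of the hepatocyte. They were chosen by symbol in the annotation of the array, with earlier results of these data known. Among 19938 genes with a cluster of a single symbol, all 10 were measured. Of these, 5 export into the bile canaliculus (Abcb11, Abcb4, Abcg5, Abcg8 and Abcc2), 2 export across the basolateral membrane towards blood (Abcc3 and Abcc4) and 3 take up bile acids and other organic anions from blood (Slc10a1, Slco1a1 and Slco1b2). Their signals were read from liver RNA of C57BL/6J males on 15 expression arrays (GeneChip Mouse Gene 1.0 ST), 3 for each of 5 groups. The groups were mice fed an atherogenic and high-fat diet with 3% branched-chain amino acids (leucine, isoleucine and valine) until week 68 (Ath+HF+BCAA 68w), the same diet without BCAA until week 68 (Ath+HF 68w), both diets until week 38 (Ath+HF+BCAA 38w and Ath+HF 38w), and a basal diet until week 38 (basal 38w). Diets were started at weaning at week 8, so that mice of 68w had received them for 60 weeks and mice of 38w for 30 weeks. The labels name no drug, mutant allele or transgene in any group. The array values are log2 signals, so that a difference of 1 is a doubling.

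In the hepatocyte, bile acids enter from portal blood through the sodium-dependent transporter encoded by Slc10a1 (NTCP) and through organic anion transporters of the Slco family. They leave into bile through Abcb11 (the bile salt export pump), which drives bile flow, while Abcb4 moves phosphatidylcholine to the outer leaflet of the canalicular membrane. Abcg5 and Abcg8 form a heterodimer that secretes cholesterol and plant sterols, and Abcc2 exports conjugated bilirubin and glutathione conjugates. Abcc3 and Abcc4 return conjugates and bile acids to blood, and are known as an overflow route when canalicular export is blocked. The nuclear receptor FXR (Nr1h4), the corepressor SHP (Nr0b2) and the sterol receptors LXR regulate many of these genes.

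Promoter sequences were taken from RefSeq (GRCm38.p6), where 9 of the 10 genes had at least 1 promoter, 12 in all, each reaching from 250 bases before the start site to 50 after it. No promoter of Abcc3 is shown. The stretch shared by Abcg5 and Abcg8 is shown first because these genes lie head to head on chromosome 17 and are described below as a pair. It covers the 209 bases at chr17:84682962-84683170, printed on the strand of Abcg8, with start sites at 84683011 for Abcg5 on the reverse strand and 84683121 for Abcg8. The capitals mark 3 matches to GATAA or its complement. Of these, 2 lie between the start sites, which are separated by 109 bases, and 1 lies downstream of the Abcg5 start site, from position 13. 
Abcg5 and Abcg8, shared stretch: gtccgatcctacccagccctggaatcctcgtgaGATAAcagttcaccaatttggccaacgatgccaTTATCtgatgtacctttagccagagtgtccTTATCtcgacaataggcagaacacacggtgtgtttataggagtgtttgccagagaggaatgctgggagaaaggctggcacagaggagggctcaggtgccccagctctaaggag
The letters GATAA were found, on either strand, in 25.4% of 32851 mouse promoters of the same length and in 6 of the 12 promoters of these genes. The promoters of Abcg5 and Abcg8 hold the same 3 matches, which are counted for each of them.

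Of all promoters, 29 (0.0883%) contained the palindrome AGGNCANTGNCCT, an inverted repeat spaced by a single base of the kind bound by FXR, and 2 of these 29 belonged to the genes described here, Abcb11 and Slco1b2. This pattern was spelled after the Abcb11 sequence had been seen, so that the match in Abcb11 was fixed by the choice. The half-site AGGTCA, which many nuclear receptors bind, was found in 16.3% of all promoters and in 5 of the 12, and each palindrome of both genes contains 1 half-site. The promoters below are shown for their palindrome (Abcb11 at chr2:69342567-69342866 on the reverse strand, and Slco1b2 at chr6:141629268-141629567 on the forward strand) and for the largest change among the 10 transporters (Slco1a1 at chr6:141946913-141947212 on the reverse strand). Each is written in the direction of its gene, with the palindrome or the half-sites in capitals. 
Abcb11: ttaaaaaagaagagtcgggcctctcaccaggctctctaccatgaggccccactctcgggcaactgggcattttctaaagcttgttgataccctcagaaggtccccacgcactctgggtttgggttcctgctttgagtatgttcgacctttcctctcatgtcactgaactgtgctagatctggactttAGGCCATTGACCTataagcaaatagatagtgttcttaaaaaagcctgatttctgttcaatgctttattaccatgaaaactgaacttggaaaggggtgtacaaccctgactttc
Slco1b2: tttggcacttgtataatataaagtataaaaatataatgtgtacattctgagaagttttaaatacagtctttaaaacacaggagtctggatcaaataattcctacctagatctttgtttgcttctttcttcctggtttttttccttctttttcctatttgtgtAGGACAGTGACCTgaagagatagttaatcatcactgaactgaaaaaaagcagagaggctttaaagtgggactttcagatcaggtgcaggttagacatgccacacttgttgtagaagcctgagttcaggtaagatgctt
Slco1a1: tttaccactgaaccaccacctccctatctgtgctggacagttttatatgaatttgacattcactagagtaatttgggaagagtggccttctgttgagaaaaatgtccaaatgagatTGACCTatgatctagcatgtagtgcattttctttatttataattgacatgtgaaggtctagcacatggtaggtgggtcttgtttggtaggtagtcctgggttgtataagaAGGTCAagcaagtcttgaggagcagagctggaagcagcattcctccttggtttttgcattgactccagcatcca
The palindrome starts at position -63 from the start site in Abcb11 and at position -88 in Slco1b2, and the half-sites of Slco1a1 start at -134 and -24. A TATAAA motif, present in 13.6% of all promoters, was found in 5 of the 12, and TGACNNNGC, the core recognized by NRF2, in 3 of the 12 against 12.4% of all. The TATAAA match of Abcg5 and that of Abcg8 are the same letters of the shared stretch, counted for each promoter. The promoters with TGACNNNGC belong to Abcc2 and Abcc4 only. The matches in the printed windows describe letters only.

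Some facts of the whole series bear on every value. No basal array of 68w is used, so age, duration of the diet and batch cannot be told apart in any contrast of 68w with 38w. Since no source used here states that each array is a different mouse, the p-values describe the scatter of the arrays, part of which may be technical. In the livers labelled Ath+HF 68w, summed macrophage markers were below the basal level (log2 of the summed signal 12.36 to 12.52, against 13.02 to 13.05 in basal arrays). They were the highest in livers labelled Ath+HF+BCAA 68w (14.47 to 14.83), with 13.81 to 14.31 in Ath+HF+BCAA 38w and 14.04 to 14.36 in Ath+HF 38w. Groups are named by their labels, each direction at 68w rests on these labels, and whether the labels of the 68w groups were exchanged was not tested. Markers of stellate cells and fibroblasts had the same order at 68w (mean summed log2 signal 13.67 in Ath+HF+BCAA 68w, 12.82 in Ath+HF 68w and 12.95 in basal livers). Hepatocyte markers were bright in every array, and Alb averaged 14.00 in Ath+HF+BCAA 68w, 14.03 in Ath+HF 68w and 14.01 in basal livers, where the brightest signal of an array lay between 14.31 and 14.48, so these markers sat near the top of the scale. Of 10 hepatocyte markers, 1 was higher and 1 lower in Ath+HF+BCAA 68w than in basal livers, and 4 were higher and 0 lower in Ath+HF 68w. Of all genes, 22.9% were higher and 21.8% lower in Ath+HF+BCAA 68w, and 19% and 19.1% in Ath+HF 68w. The sources used here do not say whether the 68w tissue contained tumor.

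At 68w with BCAA, uptake and basolateral export moved in opposite directions. Against basal livers, all 3 uptake genes were lower, both basolateral exporters were higher, and of the canalicular exporters Abcg5, Abcg8 and Abcc2 were higher while Abcb11 and Abcb4 were lower. All 10 genes thus passed an adjusted p of 0.05 (limma, Benjamini-Hochberg over all genes), 5 in each direction. Among all genes 22.9% were called higher and 21.8% lower in this comparison, a broad shift of the liver transcriptome against which the 10 are read. The 10 genes and the gene lists below were chosen with earlier results known, so their counts beside such shares are descriptions only. The median log2 difference was -2.20 over the uptake genes and 1.98 over the basolateral exporters, against 0.01 over all genes.

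Slco1a1 (Oatp1a1), an uptake transporter of male mouse liver for bile acids and steroid conjugates, changed most. Its log2 signal was 4.76, 5.39 and 6.27 in the Ath+HF+BCAA 68w arrays, 11.28, 11.51 and 10.44 in Ath+HF 68w, 11.33, 11.49 and 11.79 in Ath+HF+BCAA 38w, 11.47, 10.89 and 11.15 in Ath+HF 38w, and 11.84, 11.55 and 11.81 in basal livers. The Ath+HF+BCAA 68w arrays lay far below every other array, and the other 4 groups spanned less than their distance to them. The difference from basal livers was -6.26 (standard error 0.31, adjusted p = 2.32e-09). Against Ath+HF 68w it was -5.60 (standard error 0.31, adjusted p = 5.75e-09). Of the 3 signals in Ath+HF+BCAA 68w, 2 lay below the lower quartile of named genes of their own array (6.26 and 6.22) and the third was near it (6.21), so the size of these differences depends on the background and no fold is given. Slco1a1 belongs to a cluster of closely related genes on chromosome 6, and probes shared with its paralogs were not examined. In bulk liver, fewer hepatocytes and less RNA per hepatocyte cannot be told apart. The summed log2 signal of the hepatocyte markers, which sat near the top of the scale, ranged from 16.72 to 16.78 in Ath+HF+BCAA 68w, from 16.90 to 16.92 in Ath+HF 68w and from 16.73 to 16.78 in basal livers. Of the 10 markers, 3 were lower and none higher in Ath+HF+BCAA 68w than in Ath+HF 68w, where 16.4% of all genes were lower and 19.8% higher. The part of these markers in the differences of the transporters was not tested.

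Slc10a1, the main sodium-dependent bile acid transporter, had log2 signals of 10.54, 10.30 and 11.68 in Ath+HF+BCAA 68w, 13.42, 13.45 and 13.37 in Ath+HF 68w, 12.75, 12.80 and 12.51 in Ath+HF+BCAA 38w, 12.73, 12.50 and 12.73 in Ath+HF 38w, and 13.09, 13.06 and 12.96 in basal livers. No array of Ath+HF+BCAA 68w reached the lowest array of another group, and replicate 3 stood above the other two. Against basal livers Slc10a1 was 4.59 times lower (log2 difference -2.20, standard error 0.24, adjusted p = 2.37e-06), and without replicate 3 the log2 difference was -2.62. Against Ath+HF 68w the difference was -2.57 (standard error 0.24, adjusted p = 6.11e-07). Slco1b2 (Oatp1b2), a liver-specific organic anion transporter that also takes up unconjugated bile acids, showed the smallest change of the 3. Its signal was 10.36, 10.37 and 10.81 in Ath+HF+BCAA 68w, 11.26, 11.41 and 11.17 in Ath+HF 68w, 11.65, 11.62 and 11.51 in Ath+HF+BCAA 38w, 11.82, 11.57 and 11.53 in Ath+HF 38w, and 11.70, 11.63 and 11.55 in basal livers. Both 68w groups lay below all 38w arrays. The log2 difference from basal livers was -1.11 in Ath+HF+BCAA 68w (standard error 0.12, adjusted p = 3.03e-06) and -0.35 in Ath+HF 68w (standard error 0.12, adjusted p = 0.0377). The call in Ath+HF 68w was lost when basal replicate 1 or 2, or Ath+HF 68w replicate 1 or 3, was left out (adjusted p = 0.0715 to 0.127), and with array medians set equal the difference was -0.53.

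**Figure D1:**
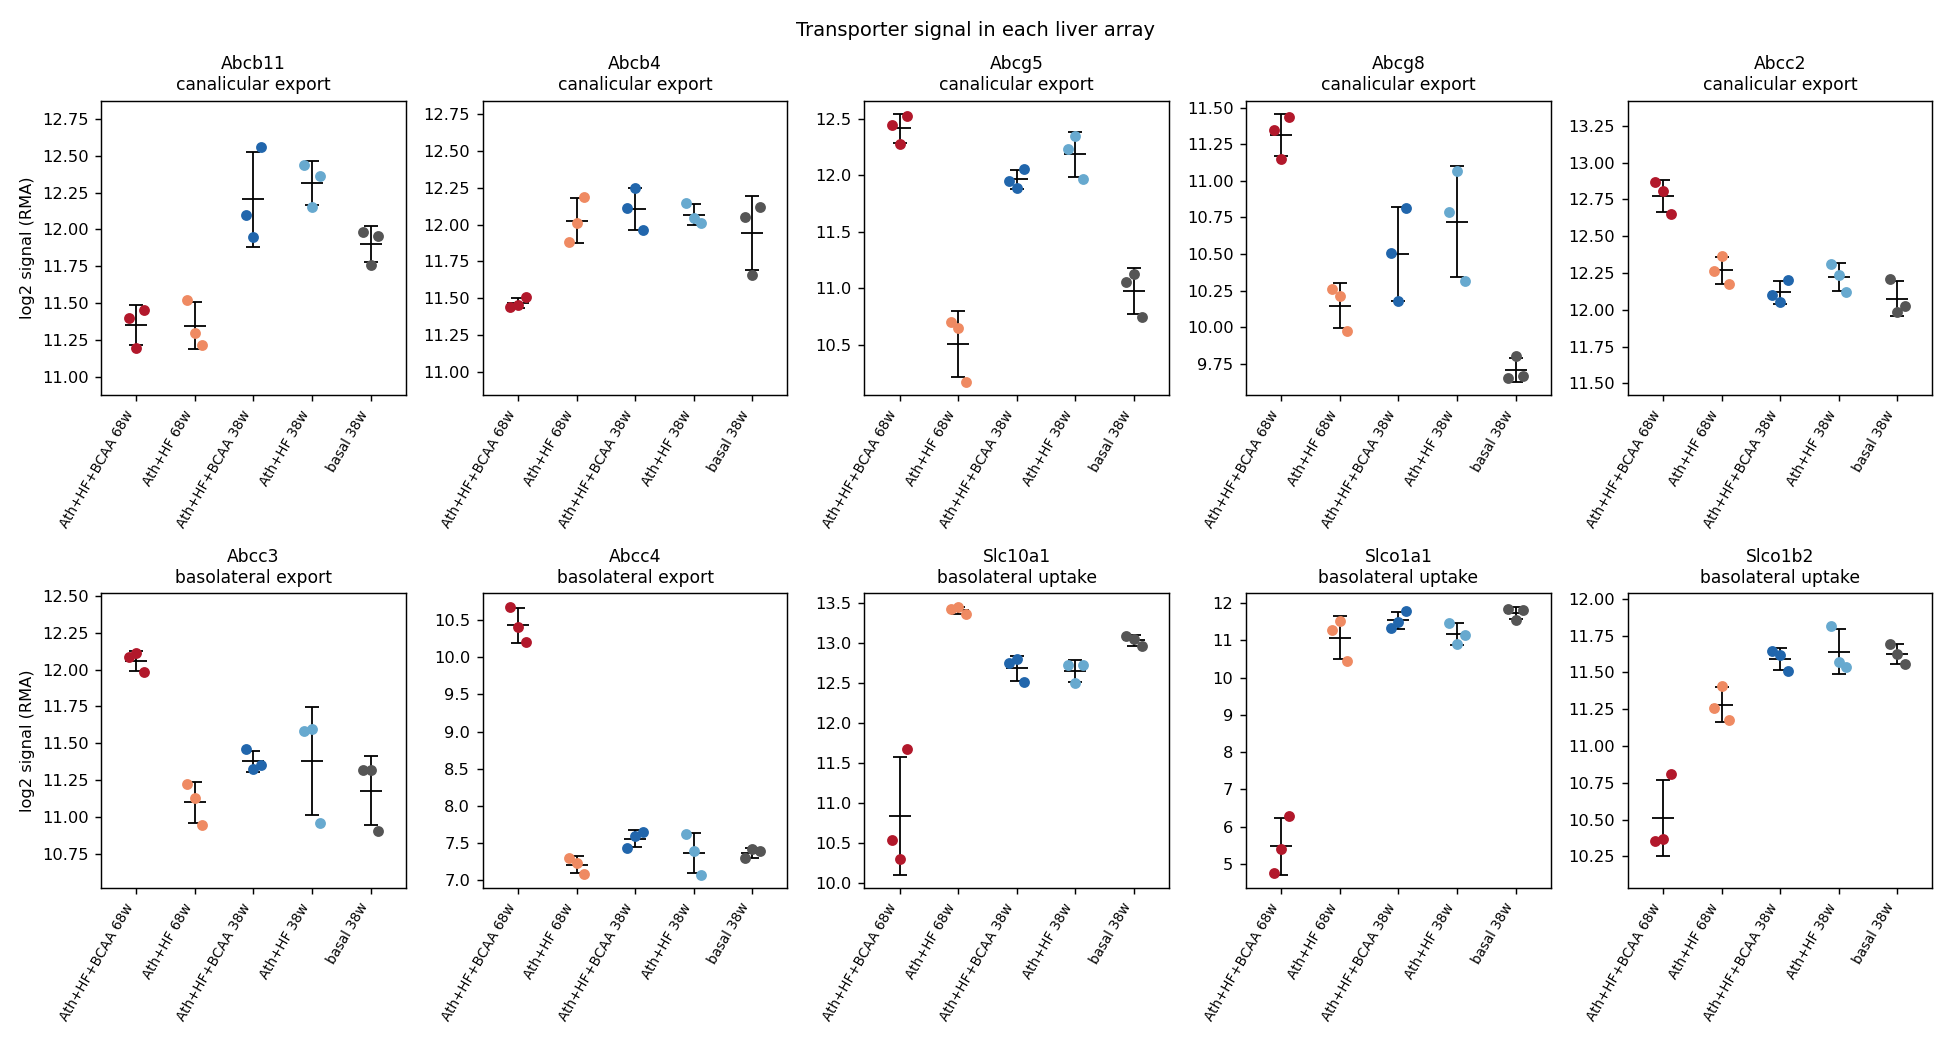
Log2 signal (vertical axis, RMA) of the 10 transporters in each of the 15 liver arrays, in 5 groups of 3 (horizontal axis), with the group mean and SD in black; each panel has its own scale, at least 2 log2 units high. In Ath+HF+BCAA 68w, Slco1a1 lies at 4.76 to 6.27 and Abcc4 at 10.21 to 10.68, apart from the other 4 groups.

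Abcc4 (MRP4), which exports bile acids together with glutathione, was the gene that rose most. Its log2 signal was 10.68, 10.41 and 10.21 in Ath+HF+BCAA 68w, 7.30, 7.23 and 7.08 in Ath+HF 68w, 7.43, 7.59 and 7.65 in Ath+HF+BCAA 38w, 7.61, 7.39 and 7.07 in Ath+HF 38w, and 7.29, 7.41 and 7.39 in basal livers. The 12 arrays outside Ath+HF+BCAA 68w lay within 7.07 to 7.65, and no comparison among these 4 groups passed the threshold. The difference from basal livers was 3.07 (standard error 0.14, adjusted p = 1.17e-09), an 8.39-fold higher signal, and that from Ath+HF 68w was 3.23 (standard error 0.14, adjusted p = 5.38e-10). Abcc3 (MRP3), the basolateral exporter of glucuronides, was at 12.09, 12.11 and 11.98 in Ath+HF+BCAA 68w, 11.22, 11.13 and 10.95 in Ath+HF 68w, 11.46, 11.32 and 11.35 in Ath+HF+BCAA 38w, 11.58, 11.60 and 10.96 in Ath+HF 38w, and 11.32, 11.32 and 10.91 in basal livers. It was 1.84-fold higher in Ath+HF+BCAA 68w than in basal livers (log2 difference 0.88, standard error 0.16, adjusted p = 0.000269). Cholangiocyte markers, genes of bile duct cells, which also express basolateral exporters, moved with both genes. Of 7 measured, 6 were higher in Ath+HF+BCAA 68w than in basal livers, where 22.9% of all genes were higher. Their summed log2 signal was 11.54 to 11.57 against 9.98 to 10.52, and Epcam averaged 7.86 in Ath+HF+BCAA 68w, 6.11 in Ath+HF 68w and 6.43 in basal livers. Their part in the rise of Abcc3 and Abcc4 was not tested.

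Abcb11, the bile salt export pump, separated the 68w groups from the 38w groups and not the diets at 68w. Its log2 signal was 11.40, 11.19 and 11.45 in Ath+HF+BCAA 68w, 11.52, 11.30 and 11.21 in Ath+HF 68w, 12.10, 11.95 and 12.56 in Ath+HF+BCAA 38w, 12.43, 12.15 and 12.37 in Ath+HF 38w, and 11.98, 11.76 and 11.96 in basal livers. All 68w arrays lay below all 38w arrays, where age, time on the diet and batch cannot be told apart. Abcb11 was lower than in basal livers in Ath+HF+BCAA 68w (-0.55, standard error 0.15, adjusted p = 0.00604) and in Ath+HF 68w (-0.55, standard error 0.15, adjusted p = 0.00803). Between Ath+HF+BCAA 68w and Ath+HF 68w the difference was 0.00, with a 95% interval of -0.31 to 0.31 (adjusted p = 0.983), and the arrays overlapped. Abcb4 (MDR2), whose loss leaves bile without phospholipid, was lower only in Ath+HF+BCAA 68w among the groups compared with basal livers. Its signal was 11.44, 11.45 and 11.51 there, 11.88, 12.01 and 12.19 in Ath+HF 68w, 12.11, 12.25 and 11.96 in Ath+HF+BCAA 38w, 12.15, 12.04 and 12.01 in Ath+HF 38w, and 12.05, 11.66 and 12.12 in basal livers. The log2 difference was -0.48 from basal livers (standard error 0.12, adjusted p = 0.00494) and -0.56 from Ath+HF 68w (standard error 0.12, adjusted p = 0.00206).

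Abcc2 (MRP2) stood at 12.87, 12.80 and 12.65 in Ath+HF+BCAA 68w, 12.26, 12.36 and 12.18 in Ath+HF 68w, 12.10, 12.05 and 12.20 in Ath+HF+BCAA 38w, 12.31, 12.24 and 12.12 in Ath+HF 38w, and 12.21, 11.99 and 12.03 in basal livers. The 3 arrays of Ath+HF+BCAA 68w were above all others, by 0.70 from basal livers (standard error 0.10, adjusted p = 2.97e-05) and 0.51 from Ath+HF 68w (standard error 0.10, adjusted p = 0.000775). No comparison made among the other 4 groups passed the threshold.

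The sterol exporters were the transporters that also rose at 38w. Abcg5 had log2 signals of 12.45, 12.28 and 12.52 in Ath+HF+BCAA 68w, 10.71, 10.65 and 10.17 in Ath+HF 68w, 11.95, 11.89 and 12.05 in Ath+HF+BCAA 38w, 12.24, 12.35 and 11.97 in Ath+HF 38w, and 11.05, 11.13 and 10.74 in basal livers. Abcg8 had 11.35, 11.15 and 11.43 in Ath+HF+BCAA 68w, 10.26, 10.22 and 9.97 in Ath+HF 68w, 10.51, 10.18 and 10.81 in Ath+HF+BCAA 38w, 10.78, 11.07 and 10.32 in Ath+HF 38w, and 9.66, 9.80 and 9.67 in basal livers. For both genes the arrays of Ath+HF+BCAA 68w and of both 38w groups lay above all basal arrays. In Ath+HF 38w, Abcg5 was 1.21 above basal livers (standard error 0.15, adjusted p = 0.000279) and Abcg8 was 1.01 above (standard error 0.18, adjusted p = 0.00367). In Ath+HF+BCAA 38w, Abcg5 was 0.99 above (standard error 0.15, adjusted p = 0.00112) and Abcg8 was 0.79 above (standard error 0.18, adjusted p = 0.0157). The call of Abcg8 in Ath+HF+BCAA 38w was lost without Ath+HF+BCAA 38w replicate 1 (adjusted p = 0.0528) or replicate 3 (adjusted p = 0.0717), and in a fit of the 38w arrays alone (adjusted p = 0.0622). In Ath+HF+BCAA 68w, Abcg5 was 1.44 above (standard error 0.15, adjusted p = 1.35e-06) and Abcg8 was 1.60 above (standard error 0.18, adjusted p = 2.8e-06).

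These 2 were the members called at 38w. Against basal livers, Ath+HF 38w had 2 of the 10 higher and none lower, where 3.05% of all genes were higher and 1.18% lower, and an unadjusted p under 0.05 was met by 3. The counts for Ath+HF+BCAA 38w were also 2 higher and none lower, with 3.67% of all genes higher and 1.82% lower. Abcb11 was 0.42 above basal livers in Ath+HF 38w (standard error 0.15) and was not called (adjusted p = 0.134). Of 12 macrophage markers, 10 were higher and none lower in Ath+HF+BCAA 68w than in basal livers, and 8 were higher and none lower in each 38w diet group. In Ath+HF 68w, 1 was higher and 5 lower, where Abcg5 was lower but Abcg8 was 0.44 above basal livers, not called. Of 11 markers of stellate cells and fibroblasts, 9 were higher and 1 lower in Ath+HF+BCAA 68w, and 6 higher and none lower in each 38w diet group. In Ath+HF 68w none of these was higher and 3 were lower. The shares of all genes at 68w were 22.9% higher and 21.8% lower with BCAA, and 19% and 19.1% without. The part of either list in the levels of the sterol exporters was not tested.

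**Figure D2:**
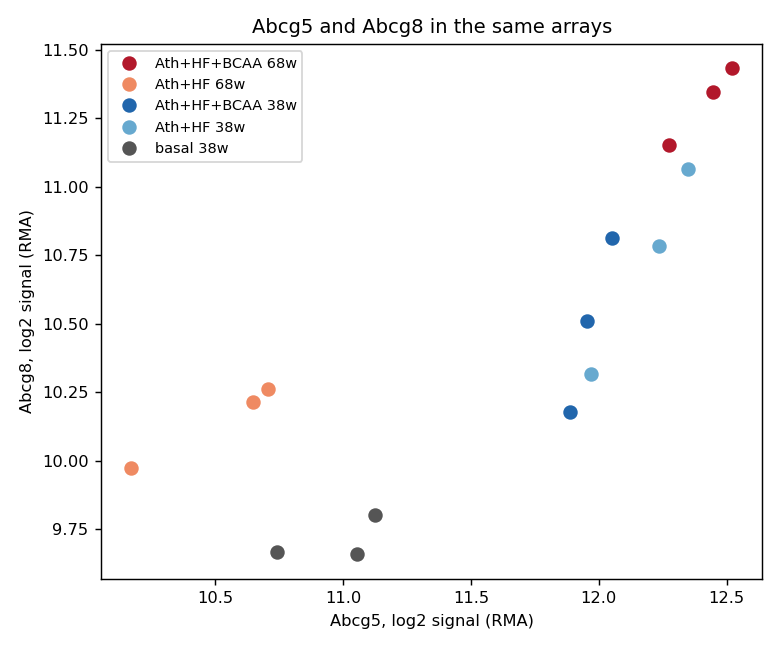
Log2 signal of Abcg5 (horizontal axis) and Abcg8 (vertical axis) in each of the 15 arrays, coloured by group. The Ath+HF 68w arrays lie left of the line formed by the other groups, with Abcg5 at 10.17 to 10.71 and Abcg8 at 9.97 to 10.26.

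In Ath+HF 68w the means of the sterol exporters lay on opposite sides of basal livers, with only Abcg5 called. Abcg5 was lower than in basal livers (-0.47, standard error 0.15, adjusted p = 0.0213), while Abcg8 was 0.44 above them (standard error 0.18, adjusted p = 0.0594). The Abcg5 call was lost without basal replicate 1 or 2 or Ath+HF 68w replicate 3 (adjusted p = 0.0663, 0.0767 and 0.118), with a difference of -0.30 without the last of these, and when only the groups compared were fitted (adjusted p = 0.058). Abcg8 passed the threshold without replicate 2 or 3 of Ath+HF 38w (adjusted p = 0.0406 and 0.0298) or of Ath+HF+BCAA 38w (adjusted p = 0.0415 and 0.0408). The difference of Abcg8 minus Abcg5 within an array averaged -1.10 ± 0.02 in Ath+HF+BCAA 68w, -0.36 ± 0.14 in Ath+HF 68w, -1.46 ± 0.24 in Ath+HF+BCAA 38w, -1.46 ± 0.18 in Ath+HF 38w and -1.27 ± 0.17 in basal livers (SD, n = 3 each). In Ath+HF 68w it was 0.91 above its mean in basal livers, at an exact two-sided permutation p = 0.1, which is the smallest that 20 regroupings of 3 against 3 allow. This comparison was chosen after the values had been seen, and since the genes have different probes only its change between groups is read. The same p was given by Ath+HF 68w against Ath+HF 38w (change 1.10) and by Ath+HF+BCAA 68w against Ath+HF 68w (-0.75). It was also given by Ath+HF+BCAA 68w against Ath+HF+BCAA 38w (0.36). Over the 15 arrays Abcg5 and Abcg8 had a Pearson r of 0.82, and 0.73 after the group means were removed, a description of arrays that share their groups.

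When Ath+HF 68w was compared with basal livers, 3 of the 10 genes were called, all lower (Abcb11, Abcg5 and Slco1b2), where 19% of all genes were higher and 19.1% lower. Slc10a1 was 0.38 above basal livers (standard error 0.24, adjusted p = 0.223). Slco1a1 was at -0.66 (standard error 0.31, adjusted p = 0.105). The basolateral exporters Abcc3 (-0.08, 95% interval -0.41 to 0.25) and Abcc4 (-0.16, 95% interval -0.45 to 0.13) did not pass. The count of called genes was 1 when basal replicate 1, basal replicate 2 or Ath+HF 68w replicate 3 was left out, and 5 without Ath+HF+BCAA 68w replicate 3, where Slc10a1 (adjusted p = 0.0141) and Slco1a1 (adjusted p = 0.0496) passed too.

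**Figure D3:**
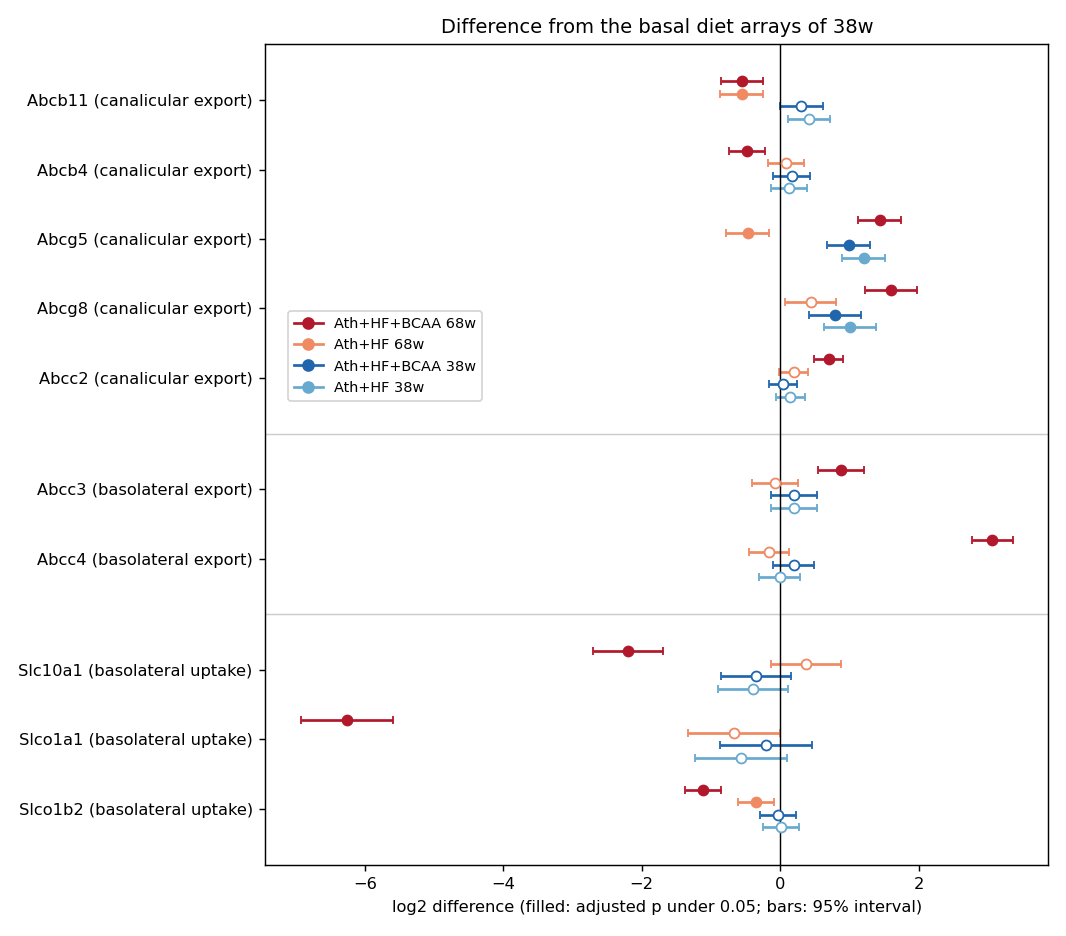
Log2 difference (horizontal axis) of each transporter from the basal 38w livers in the 4 other groups, with 95% intervals; filled points passed an adjusted p of 0.05. Ath+HF+BCAA 68w differs from basal livers for all 10 genes, from -6.26 for Slco1a1 to 3.07 for Abcc4.

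The age comparisons within a diet also bear on these genes, with age, time on the diet and batch not told apart. Between Ath+HF 68w and Ath+HF 38w, 5 of the 10 were called, where 17.6% of all genes were higher and 20% lower. Abcg5 was lower by 1.68 on the log2 scale (standard error 0.15, adjusted p = 2.14e-06), Abcb11 by 0.97, Abcg8 by 0.57 and Slco1b2 by 0.36, while Slc10a1 was higher by 0.76 (standard error 0.24, adjusted p = 0.0209). The count was 3 when Ath+HF 38w replicate 1 or 2 or Ath+HF 68w replicate 3 was left out. Abcg8 was not called in any of these (adjusted p = 0.059 to 0.0945), Slco1b2 not without Ath+HF 38w replicate 1 or Ath+HF 68w replicate 1 or 3 (adjusted p = 0.072 to 0.135) and Slc10a1 not without replicate 2 of either group (adjusted p = 0.0676 and 0.0576). Abcc3 passed without Ath+HF 38w replicate 3 (log2 difference -0.49, adjusted p = 0.0109). Between Ath+HF+BCAA 68w and Ath+HF+BCAA 38w, all 10 genes were called, where 20.5% of all genes were higher and 18.3% lower. The 5 that were higher than in basal livers were also higher here (Abcg5, Abcg8, Abcc2, Abcc3 and Abcc4), and the other 5 were lower. These comparisons share their Ath+HF+BCAA 68w arrays. Slco1a1 was lower by 6.06 on the log2 scale and Abcc4 was 7.34-fold higher. Abcg5 was 0.45 higher (adjusted p = 0.0239), a call that was lost without Ath+HF+BCAA 68w replicate 1 or 3, or Ath+HF+BCAA 38w replicate 1 or 2 (adjusted p = 0.0545 to 0.0826). With array medians set equal it was 0.30 higher (adjusted p = 0.132).

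The effect of BCAA was asked at each age. At 38w, none of the 10 differed between Ath+HF+BCAA and Ath+HF (0 called and 0 at an unadjusted p under 0.05), where 0% of all genes were called in either direction. The differences ran from -0.22 for Abcg5 and Abcg8 to 0.37 for Slco1a1, and the 95% interval of Slco1a1 reached from -0.30 to 1.03. At 68w, 9 of 10 were called, 5 higher and 4 lower, where 19.8% of all genes were higher and 16.4% lower. Abcg5 was 1.91 higher in Ath+HF+BCAA 68w than in Ath+HF 68w (standard error 0.15, adjusted p = 9.53e-08), Abcg8 1.16 higher and Abcc3 0.96 higher. Slco1b2 was -0.77 from Ath+HF 68w (standard error 0.12, adjusted p = 0.000153). Whether the BCAA effect at 68w differed from that at 38w was tested directly, and the test passed for 9 of the 10 genes, where 20.6% of all genes passed in either direction. Abcb11 was the exception (0.12, standard error 0.21, adjusted p = 0.734). The test of Abcb4 (-0.60) was lost without Ath+HF+BCAA 38w replicate 2 (adjusted p = 0.0552) or Ath+HF 68w replicate 3 (adjusted p = 0.0573). The difference of effects was 3.03 for Abcc4 (standard error 0.20) and -5.97 for Slco1a1 (standard error 0.44).

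**Figure D4:**
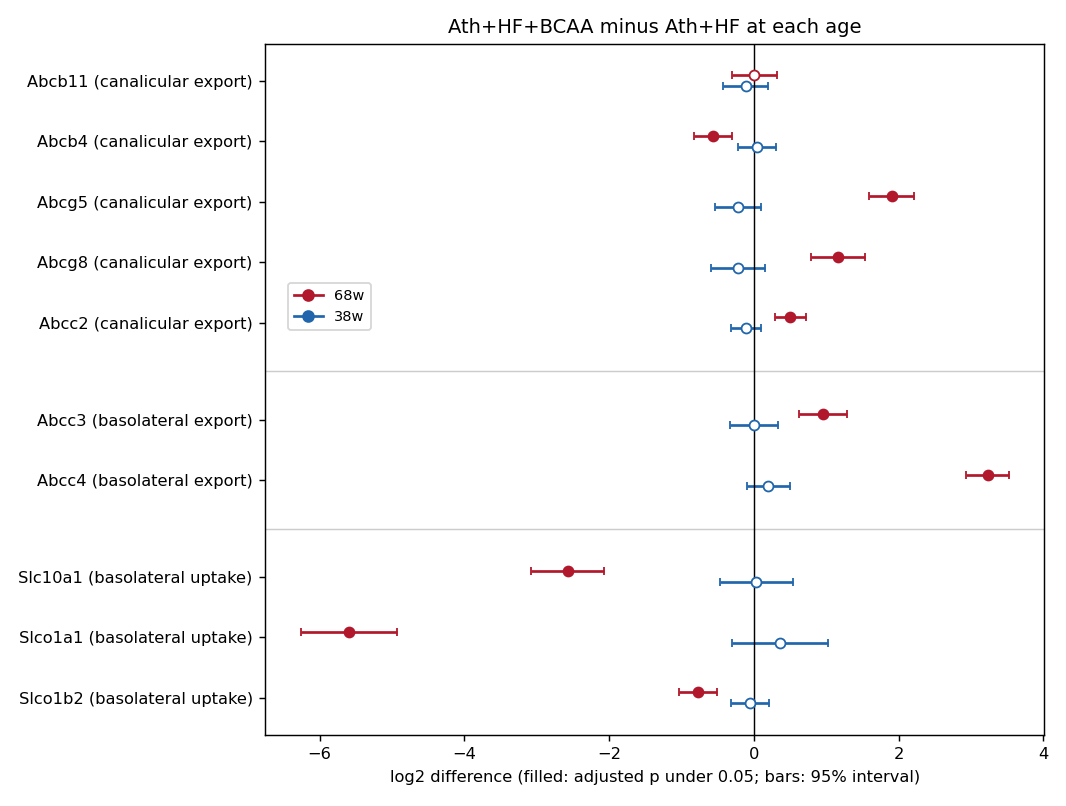
Log2 difference (horizontal axis) of Ath+HF+BCAA minus Ath+HF at 68w and at 38w for each transporter, with 95% intervals; filled points passed an adjusted p of 0.05. At 38w no point is filled, and at 68w all but Abcb11 are, with Slco1a1 at -5.60 and Abcc4 at 3.23.

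Other transporters of bile and lipid were measured too. Of 25 measured related transporters, 11 were higher and 7 lower in Ath+HF+BCAA 68w than in basal livers, where 22.9% of all genes were higher and 21.8% lower, with a median log2 difference of 0.25 against 0.01 for all genes. Abcb1a (MDR1), an exporter of drugs, was 2.30 higher (standard error 0.16, adjusted p = 4.45e-08), Abcc1 (MRP1) 1.22 higher and Abcg1, a cholesterol exporter of macrophages, 1.74 higher. Abcg2, a canalicular exporter of sulfates and drugs, was lower by 1.56 (standard error 0.13, adjusted p = 1.38e-07), and it was also lower in Ath+HF 68w (-1.26, standard error 0.13). The counts in Ath+HF 68w were 4 higher and 6 lower of 25, near the shares of all genes (19% higher and 19.1% lower). Among them were Slc51a, a subunit of the basolateral bile acid exporter OST, which was 0.50 higher at a dim signal (6.44 against 5.94, adjusted p = 0.0668 with quantile normalization), and Slc22a7, an organic anion transporter, which was lower by 1.12. At 38w, 5 of 25 were higher and none lower in Ath+HF, where 3.05% of all genes were higher and 1.18% lower. Slc51b, the partner subunit of OST, was 0.95 above basal livers (adjusted p = 0.0118) and Abcg1 was 1.13 above. The counts were the same in Ath+HF+BCAA 38w, where 3.67% of all genes were higher and 1.82% lower, with Slc51b 0.74 and Abcg1 1.15 above basal livers. The Slc51b call in Ath+HF 38w was lost without Ath+HF 38w replicate 3 (adjusted p = 0.0547) or basal replicate 3 (adjusted p = 0.0556). That in Ath+HF+BCAA 38w was lost without any of 6 single arrays, basal replicate 3 among them (adjusted p = 0.0515 to 0.151). Macrophage markers, of which 10 of 12 were higher in Ath+HF+BCAA 68w than in basal livers, moved with Abcg1, and their part was not tested.

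Of 21 measured regulators of the transporters, 4 were higher and 5 lower in Ath+HF+BCAA 68w than in basal livers, near the shares of all genes (22.9% and 21.8%). Nr1h4, the bile acid receptor FXR, averaged 9.56 there against 10.75 in basal livers (-1.20, standard error 0.15, adjusted p = 8.06e-06). Klb, the co-receptor for the intestinal hormone FGF15, was lower by 1.19 and Ghr, the growth hormone receptor, by 0.80, while Ahr, the aryl hydrocarbon receptor, was 0.85 higher. Livers of Ath+HF 68w had 6 higher and 3 lower, where the shares of all genes were 19% and 19.1%, and the highest ranked were Nr0b2 (SHP), 0.99 above basal livers (standard error 0.15, adjusted p = 0.000218), Nr1i3 (CAR) at 0.70, Rxrb at 0.50 and Rxra, the shared partner of FXR and LXR, at 0.48. With array medians set equal, Rxra was at 0.30 and Rxrb at 0.31 (adjusted p = 0.0728 for Rxrb). At 38w, 0 of the 21 were called in either diet group, a count near the shares of all genes. These were 3.05% higher and 1.18% lower in Ath+HF 38w, and 3.67% and 1.82% in Ath+HF+BCAA 38w.

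Of 15 measured genes of bile acid synthesis and conjugation, 10 were lower and none higher in Ath+HF+BCAA 68w than in basal livers, where 21.8% of all genes were lower, with a median of -0.82 against 0.01 for all genes. Cyp8b1, the sterol 12-hydroxylase that makes cholic acid, averaged 6.57, not far above the lower quartile of the arrays, against 11.50 in basal livers (log2 difference -4.93, standard error 0.46, adjusted p = 5.48e-07). The peroxisomal enzymes Scp2 (-1.35), Hsd17b4 (-1.25) and Amacr (-1.12), which shorten the side chain, were also lower. Livers of Ath+HF 68w had 4 lower and 1 higher of 15 (19.1% and 19% of all genes), led by Cyp2c70, the mouse enzyme that makes muricholic acids (-2.46, standard error 0.42, adjusted p = 0.000484). Cyp8b1 was lower at 38w too, by 2.68 in Ath+HF (adjusted p = 0.00333) and by 1.66 in Ath+HF+BCAA (adjusted p = 0.0472), where the call was lost when any of 12 single arrays was left out (adjusted p = 0.0526 to 0.132). Without Ath+HF+BCAA 38w replicate 3 the difference was -0.95. In Ath+HF 68w, by contrast, Cyp8b1 averaged 12.37, above the mean of basal livers but not called. Its level there was 3.54 higher than in Ath+HF 38w (standard error 0.46, adjusted p = 4.96e-05). Counts at 38w were 2 lower and none higher of 15 in each diet group. Of all genes, 1.18% were lower in Ath+HF 38w and 1.82% in Ath+HF+BCAA 38w.

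Of 10 measured LXR target genes, 6 were higher and none lower in Ath+HF+BCAA 68w than in basal livers, where 22.9% of all genes were higher, with a median of 0.79. Lpl, lipoprotein lipase, was 3.39 higher (standard error 0.17, adjusted p = 2.32e-09), Pltp, the phospholipid transfer protein, 1.48 higher and Abca1, the cholesterol exporter to HDL, 0.77 higher. Against basal livers, Ath+HF 68w had none higher and 1 lower (Abcg1, -0.48, a call lost without basal replicate 2 or 3 or Ath+HF 68w replicate 3, adjusted p = 0.0516 to 0.0624). The shares of all genes in that comparison were 19% higher and 19.1% lower. At 38w, Lpl was 2.80 above basal livers in Ath+HF and 3.01 above in Ath+HF+BCAA. Lpl and Abcg1 are also expressed by macrophages. Of 12 measured target genes of PXR, CAR and NRF2, receptors and a factor of the response to foreign compounds and oxidants, 9 were higher and 2 lower in Ath+HF+BCAA 68w than in basal livers, with a median of 0.90. The glutathione transferases Gstm3 and Gstm1 were 2.70 and 1.09 higher, Nqo1, a quinone reductase, was 2.05 higher and Srxn1, which repairs peroxiredoxins, 1.97 higher. Against Ath+HF 68w, 9 were higher and 1 lower, where 19.8% of all genes were higher and 16.4% lower. The lower gene was Cyp2b9 (-3.48), a call lost by the analysis of variance with Bonferroni's method (adjusted p = 0.0556). Ath+HF 68w had 1 higher and 3 lower than basal livers, where 19% of all genes were higher and 19.1% lower.

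Proteins that hold transporters in the canalicular membrane or bring them there gave 4 higher and 3 lower of 18 in Ath+HF+BCAA 68w against basal livers, at or below the shares of all genes (22.9% and 21.8%). Pdzk1, a scaffold that binds the tails of transporters, was lower by 1.70 (standard error 0.13, adjusted p = 9.66e-08), and Rab11a, a GTPase of recycling vesicles, by 0.63. Ezr and Msn, which link membrane to actin, were 1.27 and 1.82 higher. Both are abundant outside hepatocytes, and cholangiocyte and macrophage markers were higher in the same arrays. Pdzk1 was also lower in the other groups, by 0.61 in Ath+HF 68w, by 0.64 in Ath+HF+BCAA 38w and by 0.78 in Ath+HF 38w.

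Slco1a1 is one of the genes known to be expressed more in male than in female mouse liver. Of 9 measured male-biased genes, Slco1a1 included, 7 were lower and none higher in Ath+HF+BCAA 68w than in basal livers, with a median of -1.62. In this comparison 21.8% of all genes were lower and 22.9% higher, with a median of 0.01. Elovl3, an elongase of fatty acids, averaged 5.77 against 13.02 in basal livers (-7.25, standard error 0.17, adjusted p = 3.36e-13), a level below the lower quartile of the arrays, so that the size of the difference depends on the background, Cyp7b1, an oxysterol hydroxylase, was lower by 1.82 and Cyp4a12a by 1.62. Beside the same shares of all genes, 1 of 8 female-biased genes was higher (Prom1, 1.60, which also marks bile duct cells) and 4 were lower, among them Cyp17a1 (-3.95) and Acot3 (-3.28). Genes of both biases were thus among those lower in these livers.

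Over the 15 arrays, the gene most like each transporter was found by Pearson r among all measured genes, a description of arrays that share their groups. Fabp1, the liver fatty acid binding protein, was nearest to Slco1a1 (r = 0.99), the sialyltransferase St3gal3 to Slc10a1 (0.98) and Cyp2c37 to Slco1b2 (0.98). Cbr3, a carbonyl reductase, was nearest to Abcc4 (0.98), Selenon to Abcc3 (0.96), Ksr2 to Abcc2 (0.98), Ube4a to Abcb11 (0.97) and Osbpl1a to Abcb4 (0.93). The nearest gene of Abcg5 was Cd5l (0.97), a secreted protein of macrophages, and that of Abcg8 was Col3a1 (0.95), a collagen of stellate cells and fibroblasts. Among the transporters themselves, Slco1a1 had an r of 0.95 with Slco1b2 and -0.97 with Abcc4, and after the group means were removed Slco1a1 and Slco1b2 kept an r of 0.75 and Slc10a1 and Slco1b2 of 0.83. Within Ath+HF+BCAA 68w, replicate 3 had the highest Slc10a1, Slco1a1 and Slco1b2 and the lowest Abcc4 of its group. Without it, the log2 difference from basal livers was -6.66 for Slco1a1, -1.26 for Slco1b2 and 3.18 for Abcc4.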

How the data were processed

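The authors measured liver RNA on GeneChip Mouse Gene 1.0 ST arrays. The deposited values are log2 signals that the authors made by RMA in Affymetrix Expression Console (version not given in the sources used here), which corrects background, quantile normalizes and summarizes probes, so levels near background are compressed. Clusters were named through the platform annotation; 21789 of 35556 carried 1 symbol, and the brightest stood for each of 19938 genes. Samples were grouped by their labels, 3 arrays in each of 5 groups.

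limma (version 3.58.1, R version 4.3.3) fitted all 15 arrays with lmFit and eBayes (10 residual degrees of freedom). Genes were called at a Benjamini-Hochberg adjusted p under 0.05 over 19938 genes, in 8 comparisons and for the difference of the BCAA effect between ages. The fit was tested on simulated data. The members and the gene lists were chosen with earlier results of these data known. Named genes are the 10 members, the called genes of each pathway list with the 4 smallest p in a comparison, and the nearest gene to each member by Pearson r; marker lists give counts, ranges and defining markers. Alternatives were other scalings, filters, fits and tests, and every array omitted once; fitting 38w arrays by themselves, and the same alternatives for the gene lists, were added with the data in view. No 2 arrays held identical values (highest correlation 0.993). The number of arrays limits the precision. Promoters are from RefSeq (GRCm38.p6).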

Additional observations from a re-analysis of the deposited data

Results flagged for a closer look

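For 9 of the 10 transporters the difference between Ath+HF+BCAA and Ath+HF was not the same at 68w as at 38w, by a test of the difference of effects in the same fit (limma, adjusted over all genes). The effect at 68w minus that at 38w was 3.03 for Abcc4 (standard error 0.20, adjusted p = 1.8e-07), 2.13 for Abcg5 (standard error 0.21, adjusted p = 4.2e-06), 1.38 for Abcg8 (standard error 0.25, adjusted p = 0.000875), 0.96 for Abcc3 (standard error 0.22, adjusted p = 0.00541) and 0.61 for Abcc2 (standard error 0.14, adjusted p = 0.00489) on the log2 scale. It was -5.97 for Slco1a1 (standard error 0.44, adjusted p = 4.8e-07), -2.61 for Slc10a1 (standard error 0.34, adjusted p = 5e-05), -0.72 for Slco1b2 (standard error 0.17, adjusted p = 0.00793) and -0.60 for Abcb4 (standard error 0.17, adjusted p = 0.0216). Each of these differences compares arrays of different age and time on the diet, and rests on the labels of the 68w groups. Whether those labels were exchanged was not tested.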

How the results depend on the processing

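No called difference of a transporter changed direction under the alternatives run. The count of transporters called in Ath+HF+BCAA 38w against basal livers was 2, and 1 when only the groups compared or only the 38w arrays were fitted, with 1 to 2 when an array was left out. In Ath+HF 68w against basal livers it was 3, and 0 by the methods' analysis of variance with Bonferroni's method, with 1 to 5 when an array was left out. In Ath+HF 68w against Ath+HF 38w it was 5, and 2 by that method, with 3 to 6 when an array was left out. The cause was not tested. For Ath+HF+BCAA 68w the count was 9 to 10 against basal livers, where the methods' analysis of variance lost Abcb11 (adjusted p = 0.056), and 9 against Ath+HF 68w in every setting. Against Ath+HF+BCAA 38w it was 9 to 10, and Abcg5 was lost with equal array medians (adjusted p = 0.132) and by the analysis of variance (adjusted p = 0.174). The difference of the BCAA effect passed for 8 to 9, and quantile normalization lost Abcb4 (adjusted p = 0.0596). Over all genes, the count called in Ath+HF 38w against basal livers was 843 (483 to 1035 over settings), in Ath+HF+BCAA 38w 1095 (322 to 1299) and in Ath+HF 68w 7603 (6212 to 12192, the highest over all transcript clusters). With equal array medians, the median difference of all genes from basal livers became -0.18 in place of 0.01 in Ath+HF+BCAA 68w, and -0.14 in place of 0.05 in Ath+HF 68w. In Ath+HF 68w against basal livers, Abcg8 passed in 5 of the other settings (adjusted p = 0.0194 to 0.0476), Slc10a1 when only the groups compared were fitted (adjusted p = 0.0195) and Slco1a1 with equal array medians (adjusted p = 0.0447). Over all alternatives run, 2 to 6 related transporters were called higher and 2 to 13 lower in Ath+HF 68w, and 7 to 11 bile acid synthesis genes were called lower and 0 higher in Ath+HF+BCAA 68w. Same-numbered replicates did not deviate together (mean r 0.0057, 3 of 30 pairs over 0.1), and with the replicate block Slco1b2 lost its call in Ath+HF 68w (adjusted p = 0.0524). Signals near the array background limit the fold of Slco1a1.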
